A study of Gallus gallus with 40 samples.

Results

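Genes that drive DNA replication and mitosis were examined in the pectoralis major, the large breast muscle, of broiler chickens with white striping (WS), with severe wooden breast (WB) or with neither defect. The genes were 39 listed symbols, 9 of DNA replication and 30 of mitosis, taken as given and matched to the array through each probe's RefSeq transcript. Of these, 36 were matched, 8 of replication and 28 of mitosis, by 64 of the 56401 probes on the array. A probe here stands for all spots that carry the same transcript name. TYMS, AURKA and NCAPG had no match and were not analysed here.

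A dividing cell first copies its DNA: ribonucleotide reductase supplies the deoxynucleotides, the MCM helicase opens the double helix, and PCNA clamps the polymerases to the template. CDK1 with its B-type cyclins then drives entry into mitosis, in which motors and kinetochore proteins build the spindle, the BUB1 and MAD2L1 checkpoint holds anaphase until every chromosome is attached, and a central spindle splits the cell. Mature muscle fibers do not divide, so transcripts of these genes in muscle come mainly from other cells, such as satellite cells (the stem cells of muscle), leukocytes, fibroblasts and vessel cells.

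Total RNA from 40 male ROSS broilers, 1 array per bird, was measured with a one-color custom chicken microarray. The WS set held 21 birds: 4 non-WS, 7 with mild, 6 with moderate and 4 with severe WS, graded by eye from the number and thickness of the white lines. The WB set held 19 birds. At 49 days of age it had 3 non-WB and 2 severe WB birds with mild WS, and 4 non-WB and 3 severe WB birds with moderate WS. At 45 days or under it had 4 non-WB birds, all with severe WS, and 3 severe WB birds, all with mild WS, so that at this age WB and striping level cannot be told apart. The birds were commercial broilers, which the labels place on several farms and the study's methods at a local producer, and not an inbred or experimental model. The labels gave no age for the WS set. The study describes birds of a single age for the striping comparison and met no unstriped bird among those it collected, so the origin and age of the non-WS birds are not known. Groups of that set followed the sample titles, because another label field listed the striping levels under wooden breast. Both sets were normalized separately, and no level was compared between them.

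The median processed signal per array was 76.4 to 259 in the WS set and 122 to 298 in the WB set. By WS group it was 76.4 to 117 in non-WS, 110 to 229 in mild, 106 to 259 in moderate and 78.9 to 120 in severe WS. The 2 arrays of severe WB with mild WS at 49 days had the highest medians of the WB set, 273 and 298. The arrays sat on 5 slides. In the WS set the groups present on a slide always took positions in the order non-WS, severe, moderate and mild WS. Position and striping level therefore cannot be told apart there, also within a slide. Mild WS replicate 7 was the only bird of the WS set on its slide. With the slide in the fit it did not inform the fitted differences. Each stratum of the WB set (mild WS at 49 days, moderate WS at 49 days, 45 days or under) lay mainly on a slide of its own, and within a slide the WB arrays took the first positions, so position and WB cannot be told apart. Non-WB replicate 4 with moderate WS at 49 days and non-WB replicate 4 at 45 days or under sat on the mild WS slide. With the slide in the fit these birds did not inform the fitted WB differences, though their signals are given beside them. At 45 days or under 2 birds were low throughout. Replicate 3 of severe WB had the dimmest array of the WB set, with a median signal of 122, against 201 and 238 in its group. Its share of spots well above background was 70.7%, against 75.3% and 76.4%. Replicate 2 of non-WB had a median signal of 170, in a group that ranged from 160 to 176. In replicate 3 of severe WB 0 of 33 kept genes lay above their median over the set, against 23 and 30 in the other birds of the group, and its macrophage and leukocyte markers were 0.58 below their median on the log2 scale while theirs were 0.73 and 0.76 above it. In replicate 2 of non-WB it was also 0 of 33, against 18 to 30 in the other 3 birds of that group. The median deviation of the 33 genes was -0.43 in the first bird and -0.61 in the second, and results that rest on them are also given without each. The transcription factors of satellite cells and myoblasts, PAX7, MYF5, MYOD1 and MYOG, were well above background on all arrays, as were the leukocyte gene PTPRC and the fibroblast gene COL1A2. All the values come from whole tissue, in which fewer cells of a type and less RNA per cell cannot be told apart.

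A probe was tested only if it was detected with a processed signal of at least 20 on every array of its set. In the WS set 31 of the 36 genes were kept and in the WB set 33. MCM5, a subunit of the helicase, passed on 5 of 21 and 12 of 19 arrays. Its signal was 46.3 and 35.1 in the 2 severe WB birds with mild WS at 49 days and 28.4, 16.5 and 20.3 in their non-WB counterparts. These levels did not overlap, but were close to the detection limit and were not tested. TTK, a checkpoint kinase, passed on 2 arrays in each set. CCNE2, the E-type cyclin of S-phase entry, passed on 20 of 21 WS arrays and MCM6, another helicase subunit, on 18, and both were kept in the WB set. ECT2, the exchange factor that positions the cleavage furrow, passed on 12 of 21 and 18 of 19 arrays. It was read by 4 probes, each for a transcript of its own, that moved together in most birds.

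The median of the 4 ECT2 probes was 22.7 to 75.5 in 13 birds of the WS set and 3.46 to 11.8 in the other 8, with no value between. The 8 low birds were found in 3 groups: mild WS replicates 2, 4, 5 and 6, moderate WS replicates 4 and 5, and non-WS replicates 3 and 4. None of the 4 severe WS birds was low by this median, though 1 probe of severe WS replicate 1 was at 4.19. In the WB set ECT2 was at 36.3 to 167 in 18 birds and at 6.65 in replicate 4 of non-WB with moderate WS. Low ECT2 did not go with low mitotic genes in every bird: moderate WS replicate 5, at 6.42 for ECT2, had all 31 kept genes above their median.

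**Figure D1:**
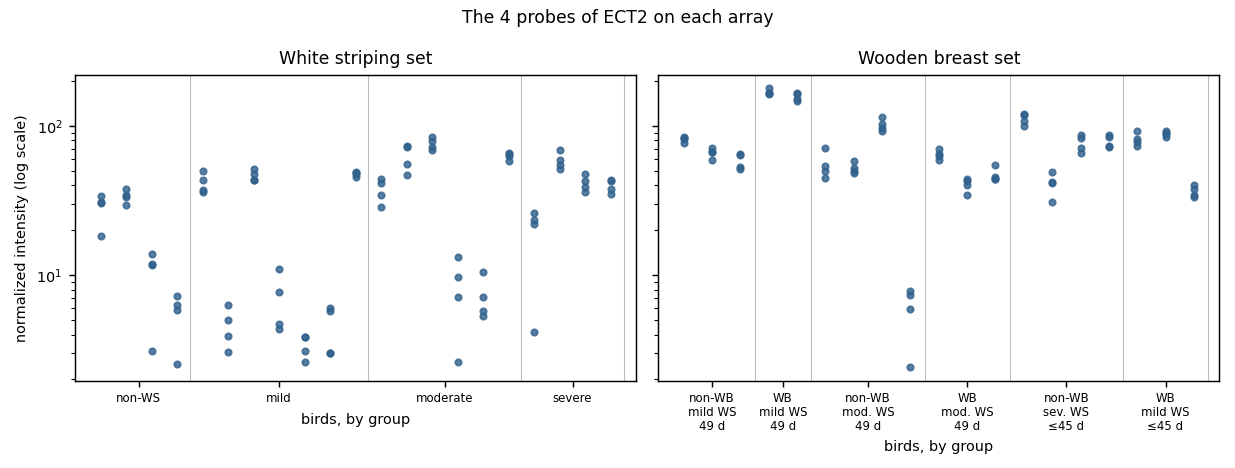
Normalized signal (log axis, arbitrary units) of the 4 ECT2 probes on each array, with the WS and WB sets apart and birds ordered by group. In 8 WS birds and 1 WB bird the median of the 4 probes lies below that of every other bird of the set, and these birds belong to several groups. Severe WS replicate 1, not among them, has 1 probe as low.

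In the WS set no kept cell division gene passed the test in any comparison of striping levels, and almost no probe of the array did. Of the 32628 probes tested, limma (adjusted p of 0.05 or less and a fold change of at least 1.2) called 1 probe in severe WS against non-WS (0.00306% of probes), 1 in mild WS against non-WS (0.00306%) and 0 in the other 4 comparisons, and none of the 31 genes was called in any. Most of the genes lay higher in moderate WS than in the other groups, with TPX2 and RRM2 among the exceptions. Between moderate WS and non-WS, 28 of 31 had a log2 fold change above 0, against 46.1% of all probes, with a median of 0.34 against -0.03 over all probes. The count with an unadjusted p of 0.05 or less was 2 of 31, less than the 14.8% among all probes.

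TOP2A, the topoisomerase that untangles sister chromatids, had signals of 1343, 1234, 1968 and 1183 in the 4 non-WS birds. In moderate WS its lowest, median and highest values were 1436, 1838 and 3361, and in mild WS 965, 1647 and 2209. The severe WS birds were at 958, 2493, 2060.2 and 1621. All 4 groups overlapped, and the non-WS group was drawn upward by its replicate 3. Moderate WS exceeded non-WS by 0.67 ± 0.28 in TOP2A (log2, SE, a 1.59-fold difference; adjusted p = 0.27, limma), the largest difference in the comparison among the genes described here by name. At an adjusted p of 0.2, where 1707 probes passed, the cell division gene to pass was DLGAP5, a spindle protein named here after its values were seen (0.59 ± 0.19, adjusted p = 0.16).

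Other genes of mitosis and replication differed less between these groups. MKI67, the Ki-67 protein that coats mitotic chromosomes, had 291, 266, 494 and 241 in non-WS birds and 314, 434 and 680.1 as the lowest, median and highest value in moderate WS (log2 difference 0.51 ± 0.27, adjusted p = 0.39, limma). CDK1 had 786, 765, 1237 and 717 in non-WS birds and 634, 1224 and 1926 in moderate WS (0.34 ± 0.29, adjusted p = 0.61). For both genes non-WS replicate 3 was the highest of its group and lay within the moderate range. CCNB2, a cyclin partner of CDK1, differed by 0.09 ± 0.20 and PCNA by -0.08 ± 0.14, both less than the spread between birds. MAD2L1 differed by 0.47 ± 0.24 (adjusted p = 0.38, limma).

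**Figure D2:**
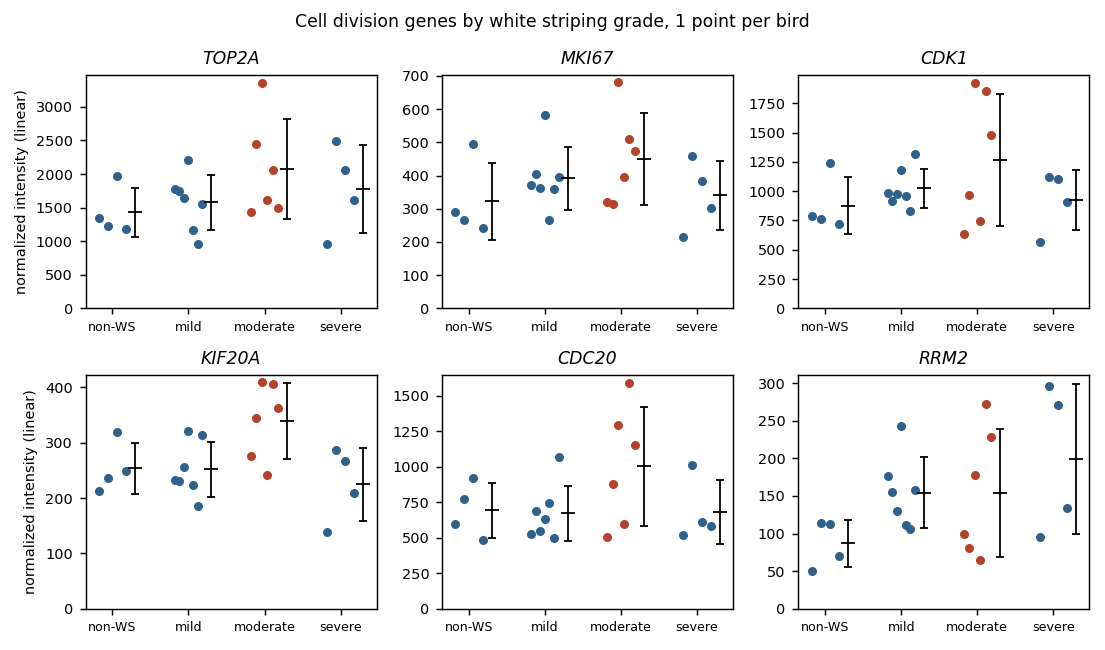
Normalized signal (arbitrary units) of TOP2A, MKI67, CDK1, KIF20A, CDC20 and RRM2 in each bird of the WS set by striping level, with moderate WS in red and black marks for mean and SD. The moderate group reaches the highest values of TOP2A, MKI67, CDK1, KIF20A and CDC20 but overlaps the other groups in every panel.

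Moderate WS also lay above mild and severe WS. Against mild WS 29 of 31 genes, among them 26 of 26 mitosis genes, had a log2 fold change above 0 (48.2% of all probes), with a median of 0.26, and 3 had an unadjusted p of 0.05 or less (8.27% of all probes). Severe against moderate WS gave 4 of 31 above 0 (49.4% of all probes) and a median of -0.33, with 3 at an unadjusted p of 0.05 or less (8.09%). These comparisons share the moderate birds and are not independent of one another. KIF20A, a kinesin of the central spindle, was at 241, 354 and 409 (lowest, median, highest) in moderate WS, at 186, 232 and 321 in mild WS and at 139, 286, 266 and 208 in severe WS. It was 0.49 ± 0.18 above mild WS (adjusted p = 0.56, limma), and severe WS lay 0.63 ± 0.21 below moderate WS (adjusted p = 0.51). CDC20, the activator of the anaphase-promoting complex, had 506, 1017 and 1590.2 in moderate and 499.6, 629.6 and 1067 in mild WS (0.63 ± 0.24, adjusted p = 0.56). The ranges of both genes overlapped between the groups. The mild WS value of 1067 in CDC20 was that of replicate 7, which did not inform the fitted difference.

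The excess in moderate WS came from some of its birds. In replicates 3 and 5 all 31 genes lay above their median over the set, with median deviations of 0.67 and 0.66 on the log2 scale, and replicates 6 and 2 had 0.37 and 0.21. Replicates 1 and 4 lay below it, at -0.27 and -0.20, within the non-WS range of -0.32 to 0.35. Severe WS was as uneven, from -0.72 in replicate 1, with 1 of 31 genes above its median, to 0.43 in replicate 2, with 30. Moderate WS replicate 5 was the brightest array of the WS set, with a median signal of 259, and moderate replicate 3 was at 190. Mild WS replicate 6, the next brightest at 229, had a median deviation of -0.30. The part of array brightness in these deviations was not tested. Leaving out each array in turn kept 25 to 29 genes above 0 for moderate against non-WS, with the median between 0.21 (without non-WS replicate 4) and 0.53 (without moderate WS replicate 4). For moderate against mild WS the count stayed at 25 to 31, and for severe against moderate WS at 2 to 9. Within slides the moderate group exceeded the non-WS group in 23 and 26 of 31 genes on the 2 slides that held both, with medians of 0.22 and 0.21. On the same slides mild WS exceeded non-WS in 23 and 21 genes, with medians of 0.22 and 0.087. Severe WS did so in 23 and 14 genes, with medians of 0.064 and -0.033. On the first slide the excess over non-WS was thus not particular to moderate WS. Moderate against mild WS varied more by slide, with medians of 0.005 and 0.14 where each group had 2 birds and 0.82 and 0.72 where each had 1. Severe against moderate WS gave 15 of 31 genes above 0 with a median of -0.0058 on one slide and 3 of 31 with -0.27 on the other, each with 2 birds a group. The fitted medians, 0.34 for moderate against non-WS and -0.33 for severe against moderate WS, were larger in size than on either slide. Through the mild WS birds the fit also draws on the slides with 1 moderate and 1 mild bird.

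**Figure D3:**
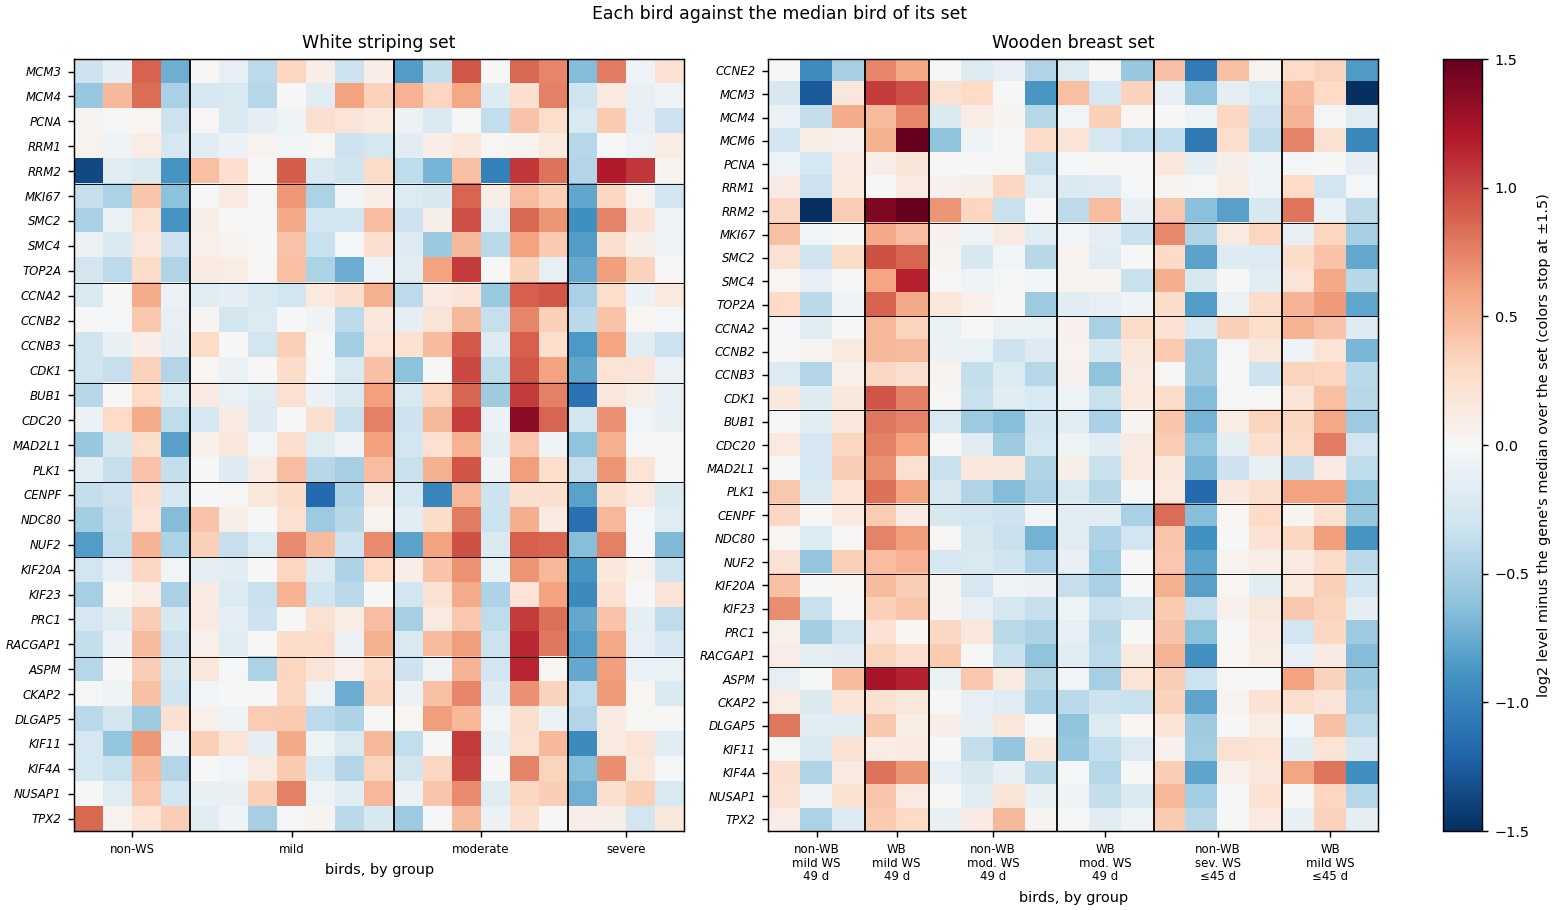
Log2 signal of each kept gene minus its median over the set (color), with genes in rows by role and birds in columns by group, WS set and WB set apart. Columns are nearly uniform in color: moderate WS replicates 3 and 5 are high and severe WS replicate 1 is low across roles, and severe WB replicate 3 at 45 days or under is low in all 33 genes.

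Macrophage and leukocyte markers were high in moderate WS replicates 3 and 5, at 1.22 and 1.198 above their median. The other moderate birds did not all follow their cell division genes. The markers were at -0.87 in replicate 2, 0.45 in replicate 4, 0.15 in replicate 6 and -0.28 in replicate 1. Over the group, 12 of 12 kept macrophage and leukocyte markers and 8 of 8 fibroblast markers lay above 0 in moderate against non-WS, with medians of 0.54 and 0.47, and 7 of 7 erythroid markers lay below it, with a median of -0.61. None was called. The summed macrophage and leukocyte signal was 94237 to 115814 in non-WS and 92312 to 239173 in moderate WS birds. PTPRC and the other defining markers were above background throughout, and their part in the result was not tested.

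Severe WS did not stand apart from non-WS in these genes. Of the 31 genes, 15 lay above 0 (47.2% of all probes), with a median of -0.01, and 1 had an unadjusted p of 0.05 or less (5.58% of all probes). The count depended on single birds, falling to 4 without severe WS replicate 2 and reaching 28 without severe WS replicate 1. RRM2, the small subunit of ribonucleotide reductase made in S phase, gave that p. Its signal was 50.8, 114, 112 and 70.3 in non-WS and 95.7, 297, 271 and 134 in severe WS birds. The groups overlapped at 1 severe WS bird, and the log2 difference was 1.12 ± 0.47 (2.18-fold; adjusted p = 0.87, limma). MAD2L1 differed by 0.33 ± 0.25, KIF20A by -0.21 ± 0.22 and TOP2A by 0.26 ± 0.29, all within the spread of the birds. Severe against mild WS gave 12 of 31 genes above 0 (47.5% of all probes), a median of -0.02 and 0 genes with an unadjusted p of 0.05 or less (9.62%).

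TPX2, which nucleates spindle microtubules and activates Aurora A, ran the other way. It was at 1759, 1002, 1122 and 1252 in non-WS birds and at 689, 871 and 999 (lowest, median, highest) in mild WS. These groups did not overlap, and the log2 difference was -0.58 ± 0.20 (adjusted p = 0.20, limma). Moderate WS gave 664, 961 and 1350.1 (-0.39 ± 0.20, adjusted p = 0.38), and severe WS 1039.7, 1034, 792 and 1080.2 (-0.36 ± 0.21, adjusted p = 0.91). For mild WS against non-WS as a whole, 17 of 31 genes lay above 0 (49.3% of all probes), with a median of 0.08, and TPX2 was the gene with an unadjusted p of 0.05 or less (15.3% of all probes). The count ranged from 11, without non-WS replicate 4, to 25, without non-WS replicate 3.

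By role, moderate against non-WS was higher in every mitotic class. The chromosome structure genes (TOP2A, MKI67 and the condensins SMC2 and SMC4) had 4 of 4 above 0 with a median log2 fold change of 0.57. The kinetochore genes NDC80, NUF2 and CENPF, which attach chromosomes to microtubules, had 3 of 3 with 0.56. Entry kinases and checkpoint genes had 4 of 4 with 0.41, midzone and cytokinesis genes 4 of 4 with 0.34, spindle proteins and motors 6 of 7 with 0.31, and CDK1 and its cyclins 3 of 4 with 0.22. The 5 kept replication genes had 4 above 0 and a median of 0.17. In severe against moderate WS the mitotic medians were -0.21 to -0.40, and replication was at -0.02. No class had a called gene.

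In the WB set limma tested 34518 probes. Averaged over the 3 strata, 8032 of them (23.3%) were called between severe WB and non-WB birds, 3984 higher and 4048 lower. In the stratum at 45 days or under, striping level differs along with WB. Of the 33 kept cell division genes 0 was called. Of the 33, 28 had a log2 fold change above 0 (48.7% of all probes) with a median of 0.22, and 5 had an unadjusted p of 0.05 or less, a smaller share than the 39.4% of all probes. The 5 were CDK1 (0.36 ± 0.15, adjusted p = 0.095), CDC20 (0.39 ± 0.17, adjusted p = 0.099), BUB1 (0.40 ± 0.18, adjusted p = 0.11), RRM2 (0.66 ± 0.30, adjusted p = 0.12) and MCM6 (1.78 ± 0.83, adjusted p = 0.13). MKI67 differed by -0.02 ± 0.16, PCNA by 0.04 ± 0.08 and CCNB2 by 0.15 ± 0.14.

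Without replicate 3 of severe WB at 45 days or under, 13165 of 34816 probes were called over the 3 strata (37.8%), 6419 higher and 6746 lower. Of the 33 genes 10 rose: MCM3, SMC2, BUB1, CDK1, KIF4A, CDC20, TOP2A, PLK1, ASPM and SMC4. Then 32 of 33 lay above 0 (48% of all probes), with a median of 0.29. MCM3, a helicase subunit, showed the largest of these rises, 0.71 ± 0.19 (adjusted p = 0.010, limma), followed by PLK1, a kinase of mitotic entry, with 0.57 ± 0.19 and KIF4A, a chromosome-bound kinesin, with 0.52 ± 0.16. This bird, whose array was the dimmest of the WB set, was left out after its values were seen. Without replicate 2 of non-WB at 45 days or under, 6583 probes and 0 of the 33 genes were called, and 23 of 33 lay above 0 with a median of 0.14. Other birds also moved the number of calls: without replicate 2 of severe WB with mild WS at 49 days it was 3395, and without replicate 1 of that group 4043.

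**Figure D4:**
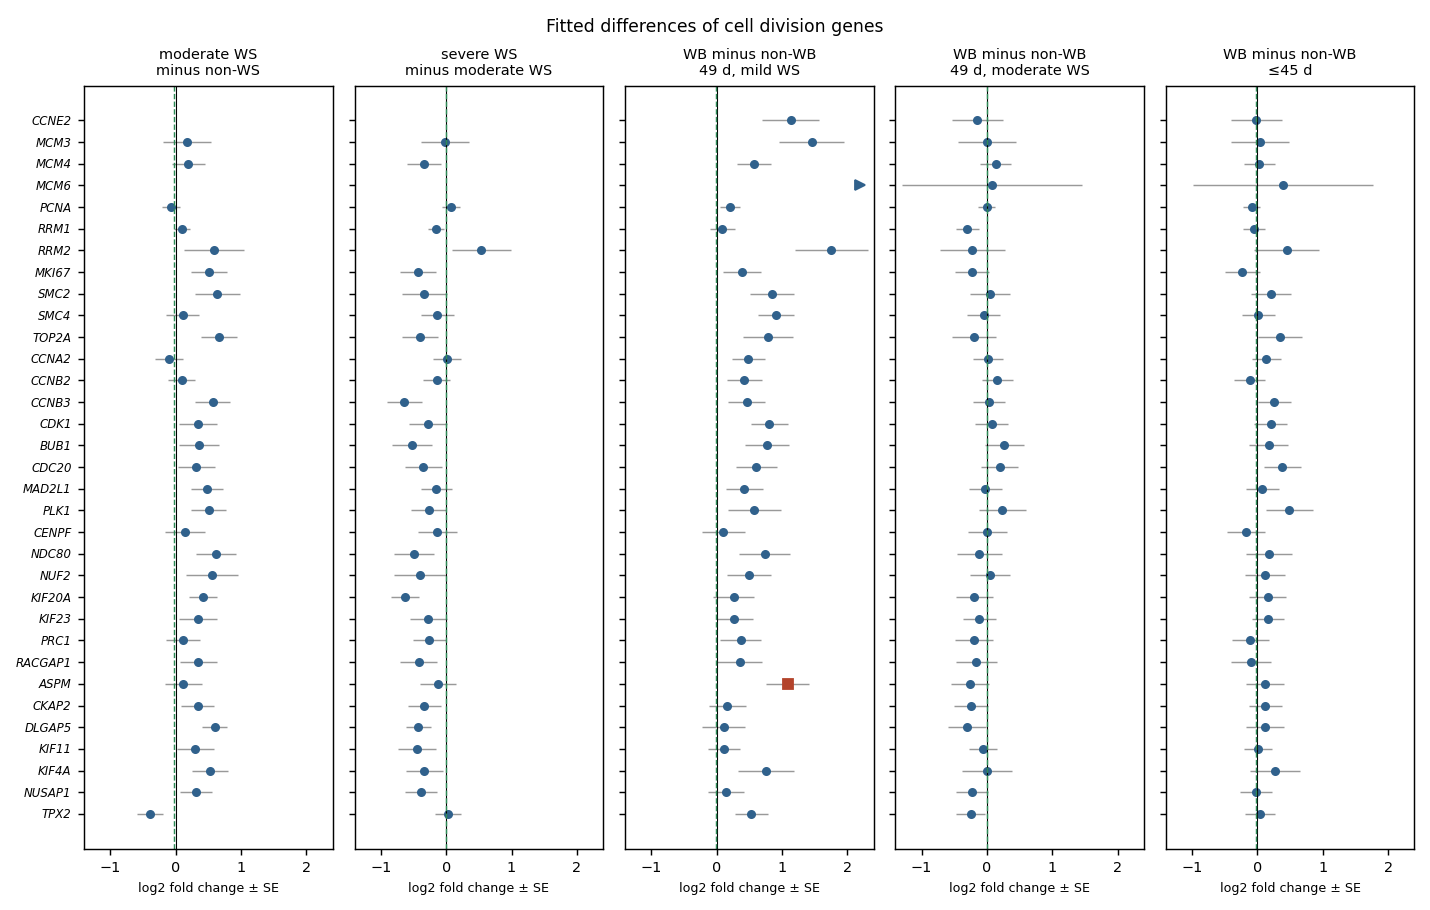
Log2 fold change with SE of each kept gene in 5 comparisons, genes by role, with the median of all probes as a dashed green line and a red square for the gene called by limma. Most genes lie right of the line in moderate WS, and all 33 lie above 0 in severe WB with mild WS at 49 days, where ASPM is called; an arrow marks MCM6, which is off the scale.

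The differences were largest at 49 days in birds with mild WS. There 3643 probes were called (10.6%), 1611 of them higher (4.67%). All 33 kept genes lay above 0 (49.8% of all probes), with a median of 0.49, and 10 had an unadjusted p of 0.05 or less, against 33.1% of all probes. The WB arrays of this stratum were all brighter than its non-WB arrays, with median signals of 273 and 298 against 179, 147 and 140. The part of array brightness in these differences was not tested. With all birds in the fit the gene that rose was ASPM, a spindle pole protein. Its signal was 1110.2 and 1053 in the severe WB birds and 432, 463 and 656 in the non-WB birds. The 2 WB birds were above every other bird of the WB set, of which the next was at 715. The log2 difference was 1.09 ± 0.33 (2.13-fold; adjusted p = 0.048, limma). The call was close to the threshold and was lost in 12 of the 19 fits that left out a bird, with adjusted p up to 0.21.

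The number of calls in this stratum also turned on replicate 3 of severe WB at 45 days or under, a bird of another stratum that enters the fit through the shared spread. This bird was left out after its values were seen. Without it the fold changes of the genes named here moved little. Of 34816 probes 8195 were called (23.5%), 4059 of them higher and 4136 lower. Of the 33 genes 8 were called, all of them higher. Their share was close to that of probes called in either direction and above that of probes called higher. The 8 genes were MCM3 (1.45 ± 0.34, adjusted p = 0.0096, limma), ASPM (1.09 ± 0.26, adjusted p = 0.011), the condensin subunits SMC4 (0.91, adjusted p = 0.015) and SMC2 (0.85, adjusted p = 0.034), CDK1 (0.81, adjusted p = 0.032), RRM2 (1.75, adjusted p = 0.037), MCM6 (4.84, adjusted p = 0.040) and CCNE2 (1.12, adjusted p = 0.049).

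RRM2 was at 522 and 566 in these severe WB birds and at 245, 66.1 and 257 in the non-WB birds with mild WS. The groups did not overlap, and the difference of 1.76 ± 0.56 (3.38-fold) had an adjusted p of 0.057 (limma). CDK1 was at 3655 and 3225 against 2127, 1669.8 and 2131, again without overlap (0.81 ± 0.28, adjusted p = 0.074). BUB1 was at 306 and 296 against 177, 157 and 199 (0.77 ± 0.33, adjusted p = 0.13). TOP2A, at 3732 and 2983 against 2475, 1527 and 1908, differed by 0.79 ± 0.38 (adjusted p = 0.16). In each of these genes both WB birds lay above the 3 non-WB birds, as they did in CCNB2 (0.42 ± 0.27, adjusted p = 0.28) and MKI67 (0.39 ± 0.29, adjusted p = 0.37). How many of all probes were separated in this way was not counted, here or for the other genes whose groups did not overlap. The genes also varied together from bird to bird, so these separations are not independent of one another.

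MCM6 rested on a single bird. Its signal was 39601 in replicate 2 of severe WB with mild WS at 49 days and 34.1 to 119 on the other 18 arrays, with 103.1 in the other bird of the group. The log2 difference of 4.87 ± 1.54 in this stratum (adjusted p = 0.056, limma) became 0.57 without that bird, and that over the 3 strata 0.34. A single probe, averaged over the spots of 1 transcript, read the gene, so no second probe could be set beside this value.

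**Figure D5:**
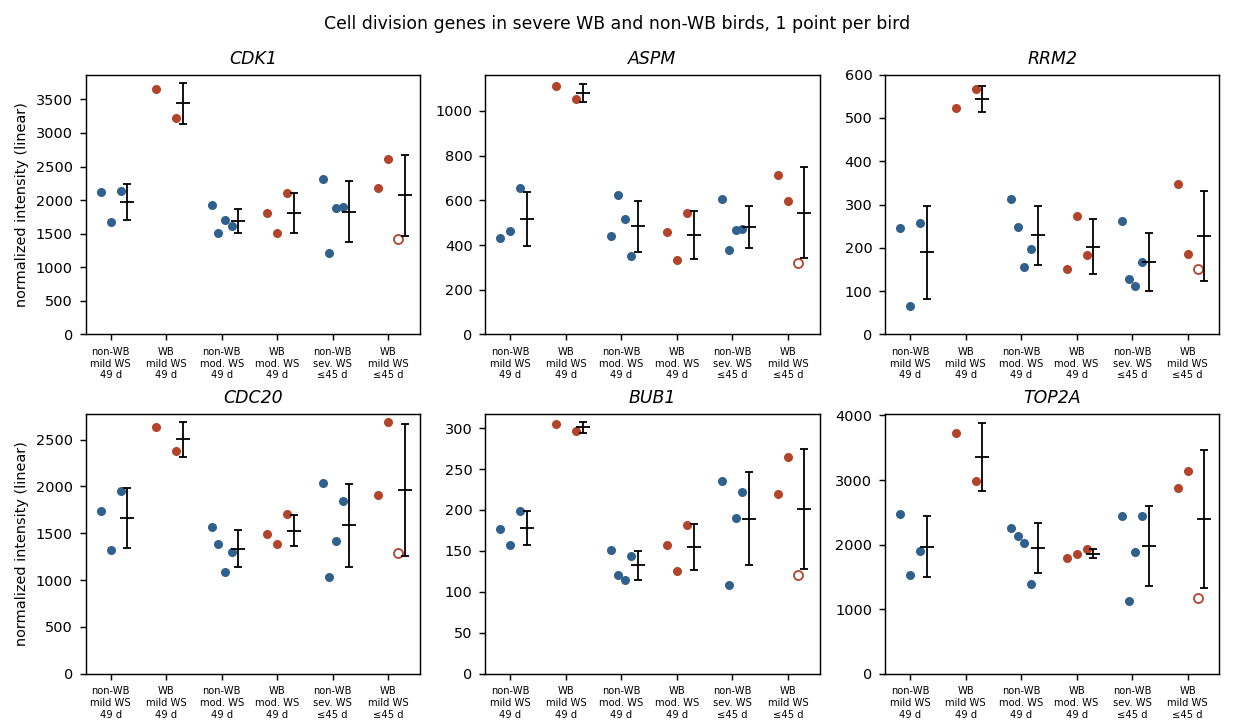
Normalized signal (arbitrary units) of CDK1, ASPM, RRM2, CDC20, BUB1 and TOP2A in each bird of the WB set by group, severe WB in red and non-WB in blue, with mean and SD; the open circle is replicate 3 of severe WB at 45 days or under. Both severe WB birds with mild WS at 49 days lie above the non-WB birds beside them in all 6 panels, the moderate WS groups overlap, and the open circle is the lowest of its group in all 6. The share of all probes that separate these birds in the same way was not counted.

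With moderate WS at 49 days the cell division genes showed no such excess in severe WB. No probe was called (0%), 14 of 33 genes lay above 0 (49.1% of all probes) with a median of -0.05, and 0 had an unadjusted p of 0.05 or less (12.1% of all probes). ASPM was at 459.6, 333 and 542 in severe WB and at 441, 624, 517 and 352 in non-WB birds (-0.26 ± 0.29, adjusted p = 0.74, limma). RRM2 was at 152, 273 and 183 against 314, 247, 157 and 198 (-0.23 ± 0.50, adjusted p = 0.88). Both pairs of groups overlapped. The fitted differences did not draw on non-WB replicate 4, at 352 in ASPM and 198 in RRM2, which sat on another slide. The test of the difference between the strata, added after the values were seen, called 0 probes. For the 33 genes it was above 0 in all (51.2% of all probes), with a median of 0.47, and 7 had an unadjusted p of 0.05 or less (11.3% of all probes). It was 1.35 ± 0.44 for ASPM (adjusted p = 0.28) and 1.98 ± 0.75 for RRM2 (adjusted p = 0.35). Over both striping levels at 49 days, 5431 probes were called (15.7%), 2580 of them higher (7.47%) and 2851 lower (8.26%), and 0 of the 33 genes, with 29 above 0 (49.3% of all probes), a median of 0.27 and 5 at an unadjusted p of 0.05 or less (35.6%).

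At 45 days or under no probe was called (0%). Of the 33 genes, 24 lay above 0 (47.8% of all probes) with a median of 0.11, and 0 had an unadjusted p of 0.05 or less (10.8% of all probes). CDC20 was at 1904, 2691 and 1284 in severe WB and at 2036, 1038, 1414 and 1843 in non-WB birds (0.38 ± 0.28, adjusted p = 0.59, limma). TOP2A was at 2883, 3138 and 1178 against 2450.0, 1133, 1885 and 2448 (0.34 ± 0.34, adjusted p = 0.69). Non-WB replicate 4, the last value of each list, sat on another slide and did not inform these differences. In both genes the third WB bird and the second non-WB bird were low and the groups overlapped. Without that WB bird 4317 probes were called (12.4%), still 0 of the 33 genes, and 30 lay above 0 (46.7% of all probes) with a median of 0.34. Then TOP2A differed by 0.79 ± 0.27 (adjusted p = 0.072). Non-WB replicate 2 of this age also had 0 of 33 genes above their median, and without it 6 of 33 lay above 0, with a median of -0.13.

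The WB difference at 45 days or under minus that at 49 days was tested directly. It called 0 probes (0%), 9 of the 33 genes lay above 0 (49.9% of all probes), the median was -0.15, and 0 had an unadjusted p of 0.05 or less (4.21% of all probes). CDK1 gave -0.23 ± 0.32 and BUB1 -0.34 ± 0.37 (adjusted p = 0.98 for both, limma). The count above 0 was 20 without severe WB replicate 3, 21 without non-WB replicate 1 and 2 without non-WB replicate 2 (median -0.45), all at 45 days or under, so its direction depended on single birds.

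By role, the stratum with mild WS at 49 days had 7 of 7 DNA replication genes above 0 with a median log2 fold change of 1.13, of which 5 had an unadjusted p of 0.05 or less. This median became 0.57 without the bird that was high in MCM6. Chromosome structure genes had 4 of 4 and a median of 0.82, entry kinases and checkpoint genes 4 of 4 with 0.59, kinetochore genes 3 of 3 with 0.49, and CDK1 and its cyclins 4 of 4 with 0.47. Midzone and cytokinesis genes had 4 of 4 with 0.31 and spindle proteins and motors, the class of ASPM, 7 of 7 with 0.17. With moderate WS the class medians were between -0.25 and 0.21. PCNA differed least among the replication genes named here: it was at 1504 and 1584 against 1343, 1167 and 1535 with mild WS at 49 days, overlapping, a difference of 0.20 ± 0.15 (adjusted p = 0.35, limma).

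Markers of macrophages and fibroblasts rose with severe WB. Over the 3 strata 12 of 13 kept macrophage and leukocyte markers and 6 of 8 fibroblast markers rose (limma), with medians of 1.08 and 0.98, against the 11.5% of all probes called higher. With mild WS at 49 days the medians were 1.60 and 1.59. The summed macrophage and leukocyte signal there was 353574 to 391682 in severe WB and 159555 to 210166 in non-WB birds, and with moderate WS it was 234010 to 317068 and 163833 to 235288. At 45 days or under it was 142881 to 303182 and 148484 to 201309. With moderate WS and at the younger age the ranges overlapped and no marker was called. Of the 8 satellite cell and myoblast markers, 3 rose and 1 fell over the 3 strata, with a median of 0.27. The list held PAX7, MYF5, MYOD1, MYOG, CDH15, CHRND, MYH15 and SYNPO2L. Its values therefore describe this list and not satellite cells alone. Of the 7 muscle fiber markers 0 rose and 1 fell. The part of these cells in the results for the cell division genes was not tested.

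Some other cell cycle genes, from lists that complete the pathway, passed the test in severe WB. Counted in either direction, no list stood far above the 23.3% of all probes called over the 3 strata. Among 16 cell cycle inhibitors and G1 regulators 4 rose and 0 fell over the 3 strata, against 11.5% of all probes called higher. CDKN1C, the p57 inhibitor of cyclin-dependent kinases, was at 2875 and 3850.0 in severe WB with mild WS and at 1375, 963 and 1699 in severe WB with moderate WS at 49 days. The non-WB birds beside them had 869, 879 and 817, and 428, 688, 779 and 689. At 45 days or under it was at 2255, 2075 and 470.1 in severe WB against 1287, 546, 536 and 1130.4. The groups did not overlap in either stratum at 49 days, and at the younger age replicate 3 of severe WB was the lowest of all 7. CDKN1C rose by 1.30 ± 0.30 (2.47-fold; adjusted p = 0.013, limma), and this was called in all 19 fits that left out a bird. BTG1, an antiproliferative gene, rose by 0.60 ± 0.14 (adjusted p = 0.012), also called in all 19. The cyclin CCND2 (0.48 ± 0.17) and the retinoblastoma gene RB1 (0.37 ± 0.10) rose as well and were called in 6 and 17 of the 19. Of 10 processing settings CCND2 was called in 4 and RB1 in all.

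Among 25 other replication genes 4 rose and 1 fell over the 3 strata, against 11.5% of all probes called higher and 11.7% called lower, and 19 lay above 0 (48.7% of all probes) with a median of 0.30. RFC3, a subunit of the clamp loader, was at 526 and 397 in severe WB with mild WS at 49 days against 677, 693 and 793 in non-WB birds. With moderate WS it was at 516, 628 and 624 against 1037, 762, 819 and 717. The groups did not overlap in either stratum, and over the 3 strata RFC3 fell by 0.57 (SE 0.11, adjusted p = 0.0085, limma). Another clamp loader subunit, RFC4, rose by 0.59 ± 0.18, CHAF1A, of chromatin assembly, by 0.49 ± 0.15 and GINS3, of the replicative helicase, by 0.37 ± 0.10. RFC3 was called in all 19 fits that left out a bird, GINS3 in 18, RFC4 in 12 and CHAF1A in 11. E2F1, a transcription factor of S-phase genes, rose with mild WS at 49 days (0.83 ± 0.17, adjusted p = 0.019).

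Among 36 other mitosis genes 1 rose and 2 fell, against the same 11.5% and 11.7%, and 28 lay above 0 (48.7% of all probes) with a median of 0.21. SPC25, which belongs to the same kinetochore complex as NDC80 and NUF2, was at 2269 and 2538 in severe WB with mild WS at 49 days against 748, 546 and 940.2. With moderate WS it was at 790.5, 677 and 988 against 600.3, 616, 679.8 and 608, overlapping at 1 bird. Over the 3 strata SPC25 rose by 0.77 ± 0.17 (1.71-fold; adjusted p = 0.012, limma). SGOL1, the shugoshin that protects centromere cohesion, fell by 0.65 (SE 0.14, adjusted p = 0.010), from 194, 176 and 199.8 in non-WB to 95.4 and 149 in severe WB birds with mild WS at 49 days. MYBL2, a transcription factor of mitotic genes, fell by 0.39 (SE 0.13, adjusted p = 0.045). It was called in 2 of 10 processing settings, with log2 fold changes from -0.41 to -0.008. SPC25 and SGOL1 were called in all 19 fits that left out a bird and MYBL2 in 8. In the WS set 26 of 29 kept other mitosis genes lay above 0 in moderate against non-WS, with a median of 0.38, and none was called.

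The cell division genes varied together from bird to bird within groups. After group and slide means were removed, all 325 pairs of kept mitosis genes were positively correlated in both sets, with a median Pearson correlation of 0.84 over the 21 WS arrays and 0.76 over the 19 WB arrays. These are descriptions without a test, since the points share arrays and array quality. Replication genes were less tightly linked to mitosis genes, with medians of 0.69 and 0.42. For comparison, the median with mitosis genes was 0.43 and 0.39 for macrophage and leukocyte markers, 0.34 and 0.46 for fibroblast markers, -0.10 and 0.29 for erythroid markers, -0.30 and 0.13 for endothelial markers, 0.10 and 0.07 for satellite cell and myoblast markers, and -0.18 and -0.29 for muscle fiber markers. The genes closest to TOP2A were KIF4A (0.96), PRC1, NDC80, CDK1 and PLK1 in the WS set and KIF4A (0.96), SMC2, NDC80, PLK1 and CKAP2 in the WB set. TPX2 was among the least like it in the WS set, at 0.36, as was MCM6 in the WB set, at 0.02.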

How the data were processed

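Breast muscle RNA of 40 birds was hybridized singly to Agilent custom chicken arrays. The deposited scanner files hold spot intensity from Agilent Feature Extraction 10.7.1.1, and the processed signal, which the authors' software had background-corrected, was used. The authors' deposited value table, an alternative, held linear intensity: for the WB set it repeated the processed signal (column medians 444 to 997), and for the WS set it was normalized by an unstated procedure (column medians 462 to 485). Flagged and control spots were left out, and spots with the same transcript name were averaged into what is called a probe here. A probe was kept if it was well above background with a signal of at least 20 on every array of its set. Each set was quantile-normalized and log2-transformed, and limma 3.58.1 (R 4.3.3) fitted groups with the slide as a fixed factor, with Benjamini-Hochberg adjustment over all kept probes. A call needed an adjusted p of 0.05 or less and a fold change of at least 1.2. Fold changes are log2, ± is the SE, and "above 0" counts positive log2 fold changes. Where a gene had several probes the brightest stood for it. Among the 8 (WS) and 9 (WB) listed cell division genes with over 1 kept probe the sign differed in 0 to 4 per comparison and the call in none. Agreement between probes is not given for the other cell cycle genes. The methods' batch correction named no batch and was not run. P-values measure the spread between birds, and the number of arrays limits the precision. The fit was tested on simulated data.

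Genes described in full were CDK1, TOP2A, MKI67, CCNB2, PCNA, RRM2 and MCM5, every called gene, and the 5 of smallest p in severe WS against non-WS and in severe WB over 3 strata; those named without replicate 3 of severe WB at 45 days or under, and ECT2 and TTK, were chosen after their values were seen. The genes, the lists of other cell cycle genes and the markers were chosen with earlier results of these data known. Transcripts were named through a RefSeq gene table. Among the cell cycle genes named here CCNB2, KIF4A and SGOL1 matched as synonyms. Alternatives were other scaling, background correction, filters, slide terms, call rules, the methods' t-test, the value table and leaving out each array. A further called gene of the other replication list is not reported here by name.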

Additional observations from a re-analysis of the deposited data

Results flagged for a closer look

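Of 90 groups of 4 to 10 birds examined, over the genes described by name, 5 had a bird far from the rest of its group, and chance marks about 1 in 20. CDK1 was at 1237 in non-WS replicate 3 and at 717 to 786 in the other 3 birds. That bird had 29 of 31 kept genes above their median over the set. CDC20 was at 1067 in mild WS replicate 7, the mild bird that was alone on its slide in the WS set, and at 499.6 to 744 in the other 6. PCNA was low in 2 birds. It was at 695 in non-WS replicate 4 against 867 to 888, and at 1116 in replicate 4 of non-WB with moderate WS at 49 days against 1402 to 1416. The latter is also the WB-set bird in which the ECT2 probes were near background. TPX2 was at 792 in severe WS replicate 3 and at 1034 to 1080.2 in the other 3.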

How the results depend on the processing

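Of 288 counts recomputed under the alternatives 235 stayed within 1.5 times of the first value, and of 374 values of named genes 354 kept their side of the threshold and 0 changed direction. MKI67 over 3 strata, which is not among these, was at -0.02 with all birds and 0.04 without severe WB replicate 3 at 45 days or under. An adjusted p of 0.2 called 3 probes in severe against non-WS, 1707 probes and 1 cell division gene in moderate against non-WS, 1687 and 1 in mild against non-WS, and 3 probes in severe against moderate WS. In severe WB it called 14378 probes and 10 genes over 3 strata, 14116 and 10 at 49 days, 13912 and 15 with mild WS at 49 days, and 155 probes in the difference between striping levels. Normexp background called 0 probes in severe, 29 in moderate and 5 in mild against non-WS, and 3 genes with mild WS at 49 days. The value table called 0 probes in severe and in mild against non-WS, and in severe WB 5 genes over 3 strata, 12034 probes and 15 genes at 49 days, and 14415 and 26 with mild WS. It is not normalized for the WB set, and there the median of all probes shifted by 0.29, 0.43 and 0.70, so that 8824 probes were higher and 1299 lower over 3 strata, 11140 and 894 at 49 days, and 13625 and 790 with mild WS. Scaling to the 75th percentile split the calls at 49 days into 1970 higher and 3304 lower, against 2580 and 2851.

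Without a detection filter the probes called were 0, 2 and 4 in severe, moderate and mild against non-WS, 3605 at 49 days, 1 at 45 days or under, 1 in the age difference, 2 with moderate WS at 49 days and 11 in the difference between striping levels, and ASPM was lost, leaving 0 genes with mild WS. Detection in at least 1 group gave 0 probes in severe and 2 in mild against non-WS, 1 in the age difference, 1 with moderate WS, 4 in the difference between striping levels and 0 genes with mild WS. Without a slide term 11 probes in mild against non-WS and 4 genes with mild WS at 49 days were called, and with the slide as a random block 11 in moderate and 19 in mild against non-WS and the same number of genes, 4. The methods' t-test called 0 probes in severe and in mild against non-WS, 3401 at 49 days, and 34 probes and 0 genes with mild WS. The causes were not tested, apart from the numbers of probes and birds that an alternative itself changes.

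Replicate numbers did not pair the birds: same-numbered birds of different groups correlated at -0.23 to 0.33 in the WS set and -0.30 to 0.38 in the WB set. With the replicate number as a block 0 probes were called in severe and 0 in mild against non-WS, and 2194 probes and 0 genes with mild WS at 49 days.

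Leaving out each array in turn gave 0 to 3 probes in severe, 0 to 154 in moderate and 0 to 144 in mild against non-WS. Moderate against non-WS had 114 without non-WS replicate 4, 152 without mild WS replicate 6 and 154 without moderate WS replicate 6. In severe WB it gave 3395 to 13165 probes and 0 to 10 genes over 3 strata, 35 to 9164 and 0 to 1 at 49 days, 0 to 4317 probes at 45 days or under, 0 to 2 and 0 to 1 in the age difference, 20 to 8195 and 0 to 8 with mild WS at 49 days, 0 to 3 probes with moderate WS, and 0 to 55 and 0 to 1 in the difference between striping levels. The lowest counts at 49 days and with mild WS came without a severe WB bird with mild WS, when the other was assumed to vary like the remaining groups, and the highest without severe WB replicate 3 at 45 days or under. Groups of 2 to 4 birds, and signals near background for MCM5, MCM6, TTK and ECT2, limit what these arrays can show.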
